A study of Mus musculus with 4 samples.

Results

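Glutathione genes were followed in RNA-sequencing libraries of injured kidneys from mice with and without tubular Apela, the gene of the peptide elabela (ELA). The group holds the protein-coding glutathione transferases (symbols starting with Gst or Mgst), the glutathione peroxidases (Gpx), and 12 listed enzymes that make, recycle, break down or use glutathione, which gave 45 genes of the 54078 features of the deposited table. They were sorted into 10 classes by enzyme family or role. The 4 libraries came from kidneys taken at day 3 after both kidneys had been clamped for 30 min (bilateral ischemia-reperfusion, bI/R 3D), 2 from WT and 2 from KO mice. WT mice were Apela flox/flox littermates without Cre. KO mice carried the same floxed alleles and Cre under the Ksp-cadherin promoter, which is active in renal tubular cells, so that other cells kept the gene. All mice were adult males that had undergone the injury, uninjured kidneys are not analysed here, and the labels give the strain as C57BL/6 x 129S4/SvJae whereas the study's methods give C57BL/6. Each library was made from the pooled RNA of 3 mice, so n = 2 counts pools and not animals.

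Glutathione is a small thiol made in the cytosol from glutamate, cysteine and glycine. Transferases join it to electrophiles, peroxidases spend it to reduce hydrogen peroxide and lipid peroxides, and glutathione reductase restores it with NADPH. The kidney takes glutathione from the blood and breaks it down on the proximal tubule brush border, and many transferase genes are known targets of the stress-responsive factor NRF2, which binds antioxidant response elements.

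Levels are in FPKM, fragments scaled by gene length and library total, and can be compared between genes. The reads behind them, recovered from FPKM and gene length, numbered 16045724 to 16927742 per library, of which 2.50% to 3.25% fell on the 45 genes. The deleted gene itself, Apela, was measured at an FPKM of 5.27 and 4.57 in WT kidneys and 0.536 and 0.245 in KO kidneys. The text deposited with the series names adipose tissue, but the labels name kidney. The summed FPKM of 15 proximal tubule markers was 3333 to 5726 in these libraries, and that of 6 adipose markers was at most 0.405 with Ucp1 at 0. WT replicate 2 stood apart in cell type markers. Its summed FPKM of 10 macrophage markers was 490 against 208 to 264 in the other pools, with 8 of the 10 highest there, and that of 5 fibroblast markers was 269 against 134 to 181, with all 5 highest there. Of the 15 proximal tubule markers 7 were lowest in WT replicate 2, and their low sum there followed Pck1, the most abundant of them, at an FPKM of 1771 and 575 in WT and 2122 and 1594 in KO pools. In libraries of whole kidney, fewer cells of a type and less RNA per cell cannot be told apart.

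At bI/R 3D 16 of the 19 transferases tested had a log2 fold change above 0 (KO minus WT), and 13 of the 19 were higher in KO without overlap of the pools, but 0 of them passed the test after adjustment. The most abundant peroxidase genes and the gamma-glutamyl enzymes showed no common direction. Of the 45 genes, 37 had a mean FPKM of at least 0.5 and were tested, and 29 of these had a log2 fold change above 0, against 51.4% of all 15414 genes tested. The median log2 fold change, on the scale of FPKM + 0.5, was 0.28 for these genes and 0.0071 for all genes tested. The pools did not overlap for 20 genes (54.1% of the 37; 37.8% of all genes tested). Both KO pools lay above both WT pools for 19 of them (19.7% of all genes tested) and below for 1, Gpx1 (18.1% of all genes tested). A log2 fold change of at least 0.5 was seen for 16 (5.35% of all genes tested). With limma and Benjamini-Hochberg adjustment 0 of the 37 had an adjusted p-value under 0.05, as did 0% of all genes tested, and their adjusted p-values ran from 0.677 to 0.999. The deleted gene Apela, with a log2 fold change of -2.62, also failed this test (limma, Benjamini-Hochberg adjusted p = 0.466). That was the lowest adjusted value among all genes tested, so a lack of calls does not show a lack of difference. At an unadjusted p under 0.05 there were 7 of the 37 members (18.9%; 6.32% of all genes tested). All 7 were higher in KO (3.29% of all genes tested), and 0 were lower (3.03%). These were Gstp1, Mgst1, Gstt3, Gsto1, Esd, Gstm1 and Gsr. A fit with a block for the replicate number also gave 7 (932 of the 15414 genes tested). Gstp1, Mgst1 and Gstt3 were again among them, and the others were Gstm5, Mgst3, Gstt2 and Glrx. With voom weights on the recovered reads 0 passed after adjustment and 13 had an unadjusted p under 0.05 (6.15% of all genes tested), among which Gstp1 was not.

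**Figure D1:**
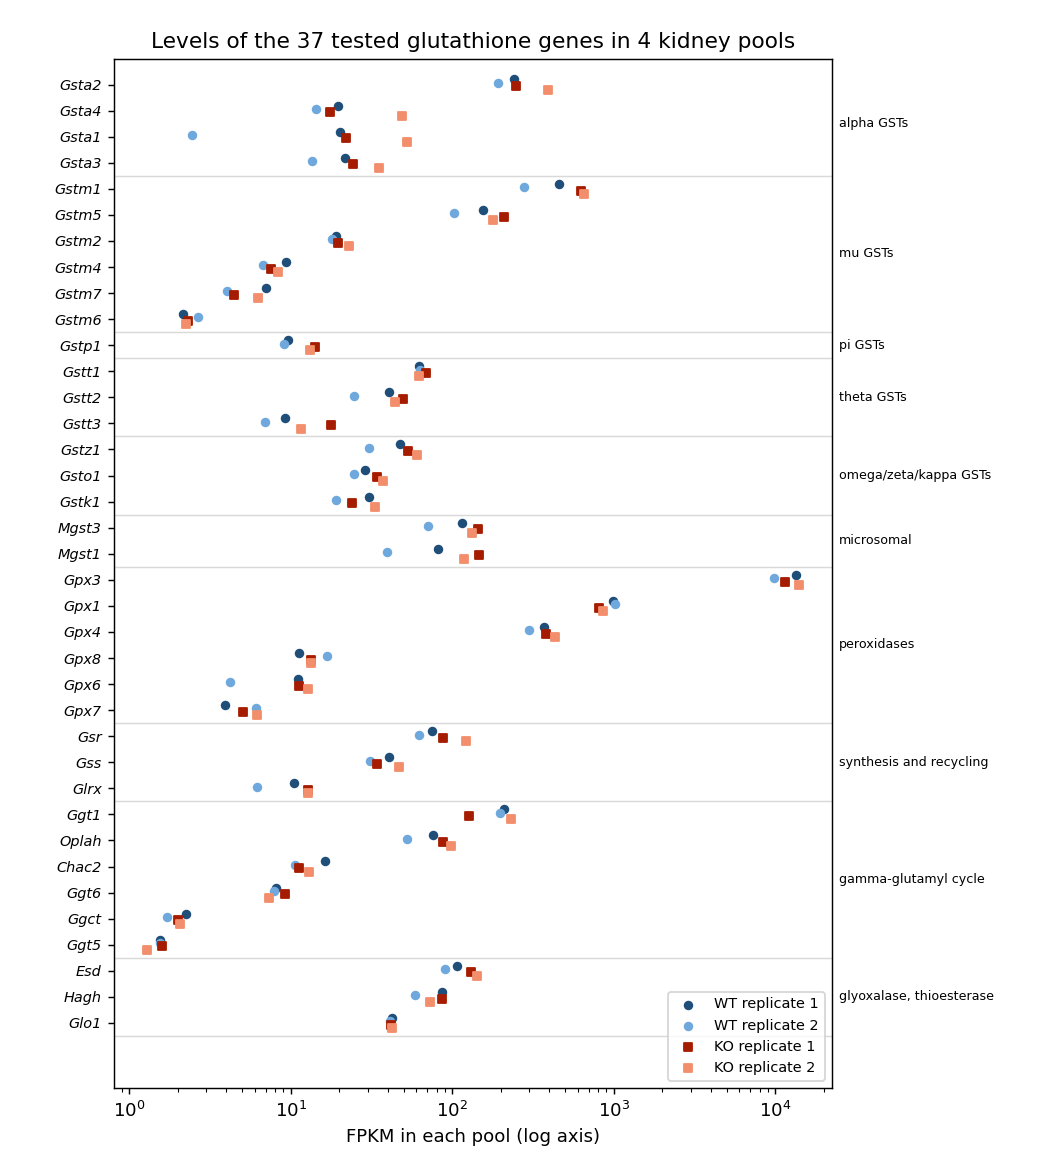
FPKM (log axis) of the 37 tested genes in each of the 4 pools, ordered by class and mean level; circles are WT and squares KO pools. Levels run from 1.29 for Ggt5 to 14114 for Gpx3, and WT replicate 2 is the lowest pool for 29 of the 37 genes.

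**Figure D2:**
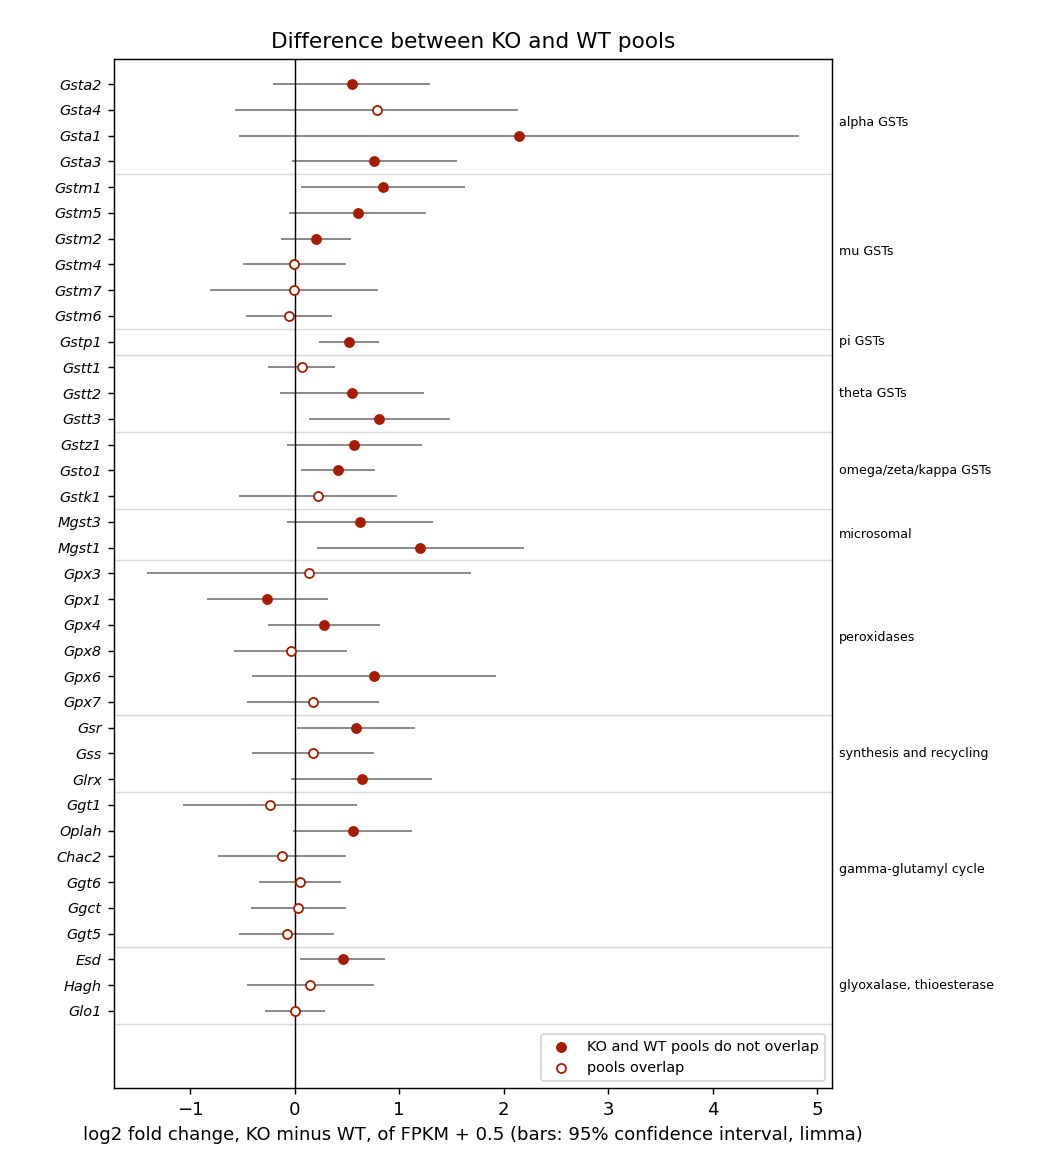
Log2 fold change (KO minus WT, of FPKM + 0.5) of the 37 genes with its 95% confidence interval from limma; filled points mark genes whose KO and WT pools do not overlap. The points of 29 genes lie above 0, and 7 intervals exclude 0 before any adjustment for the number of genes tested.

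The WT pools also differed from each other. WT replicate 2 had the lowest level of the 4 pools for 29 of the 37 genes (78.4%), against 30.7% of all genes tested. WT replicate 1 was above WT replicate 2 for 32 of the 37, against 50.7% of all genes tested, and the median absolute log2 difference was 0.45 within WT and 0.21 within KO. Without WT replicate 2 the log2 fold change was above 0 for 25 of the 37 genes, their median was 0.20, and both KO pools lay above the remaining WT pool for 23 (34.3% of all genes tested). Without WT replicate 1 these values were 31, 0.53 and 29 (37.7% of all genes tested). The count of KO above WT was 26 when KO replicate 1 was left out (34.8%) and 23 when KO replicate 2 was (35.1%). In either direction, 32 genes did not overlap with WT replicate 1 left out (73.7% of all genes tested) and 28 with WT replicate 2 left out (66.3%). With KO replicate 1 left out there were 29 (67.7%), and with KO replicate 2 left out 25 (67.3%). A log2 fold change of at least 0.5, seen for 16 genes with all pools, was seen for 4 when WT replicate 2 was left out (4.56% of all genes tested) and for 19 when WT replicate 1 was (9.41%). It was seen for 14 when KO replicate 1 was left out (6.51%) and for 10 when KO replicate 2 was (7.16%). The 7 genes with an unadjusted p under 0.05 became 2 when WT replicate 2 was left out (4.46% of all genes tested) and 15 when WT replicate 1 was (11.2%). There were 4 when KO replicate 1 was left out (4.72%) and 2 when KO replicate 2 was (5.05%). Among the 19 genes higher in KO without overlap, the genes that came nearest 0 were Gstm2 at 0.095 without KO replicate 2, and Gpx6 at 0.11, Gpx4 at 0.13 and Gstt2 at 0.20 without WT replicate 2. Leaving out WT replicate 2 also gave 0.43 for Gsta3, 0.31 for Gstm5, 0.25 for Gstz1, 0.28 for Mgst3 and 0.29 for Oplah. The part of the macrophage and fibroblast markers of WT replicate 2 in these values was not tested.

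Alpha transferases detoxify products of lipid peroxidation and are abundant in proximal tubules and liver. All 4 members had a log2 fold change above 0, from 0.54 to 2.15. Gsta2 (ENSMUSG00000057933; chr9:78331018-78355788 of GRCm38, minus strand), the most abundant of them, had an FPKM of 240 and 191 in WT kidneys and 248 and 393 in KO kidneys. KO replicate 1 was thus close to WT replicate 1, and KO replicate 2 held most of the difference. The log2 fold change was 0.54 (standard error, SE, 0.29; limma, Benjamini-Hochberg adjusted p = 0.798), and 0.21 without KO replicate 2.

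Gsta1 (ENSMUSG00000074183), 88.3 kb away on the plus strand, at chr9:78230656-78242684, had the largest difference of the 37 genes and also the widest spread. Its FPKM was 20.2 and 2.43 in WT kidneys and 22.1 and 52.4 in KO kidneys. The groups did not overlap, but WT replicate 1 and KO replicate 1 were nearly level. The log2 fold change of 2.15 (SE 1.02; 95% confidence interval from -0.53 to 4.83) became 0.74 without WT replicate 2 and 3.56 without WT replicate 1. Gsta1 and Gsta2 have similar transcripts, with 44.6% of the windows of 50 bases and 19.8% of those of 100 bases in the longest Gsta1 transcript found in Gsta2, so their reads may be divided unevenly.

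Gsta3, on chromosome 1 (chr1:21240589-21265661), had an FPKM of 21.7 and 13.5 in WT and 24.3 and 35.4 in KO pools, a log2 fold change of 0.76 (SE 0.30). Its pools did not overlap. Gsta4, which prefers 4-hydroxynonenal, a product of lipid peroxidation, had an FPKM of 19.8 and 14.4 in WT and 17.5 and 49.2 in KO pools. These overlapped, and the log2 fold change of 0.79 was 0.054 without KO replicate 2. In the alpha class KO replicate 2 was therefore the highest pool for every member.

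Mu transferases conjugate a broad range of electrophiles, and their 7 genes lie in a row on chr3:107895821-108044894. Of the 6 tested members 3 were higher in both KO pools (19.7% of all genes tested), and the other 3 were within 0.06 of 0 on the log2 scale. Gstm1 (ENSMUSG00000058135; chr3:108012255-108017973, minus strand), the most abundant transferase of the kidney libraries, had an FPKM of 459 and 278 in WT kidneys and 628 and 656 in KO kidneys. This was 368 ± 128 (SD, n = 2) against 642 ± 19.9 (SD, n = 2), a log2 fold change of 0.85 (SE 0.30; limma, Benjamini-Hochberg adjusted p = 0.785). Leaving out WT replicate 2 gave 0.48, and leaving out WT replicate 1 gave 1.21. Gstm1 alone made up 67.4% to 75.0% of the summed FPKM of the class.

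Gstm5, at the end of the cluster away from Gstm1 and Gstm4, had an FPKM of 156 and 103 in WT and 208 and 179 in KO pools, a log2 fold change of 0.60 (SE 0.25). Gstm2 lay between them with 19.0 and 17.9 in WT and 19.8 and 23.0 in KO pools, a log2 fold change of 0.20. Its groups did not overlap, but the gap between the closest pools was small. Gstm4, next to Gstm1, had an FPKM of 9.33 and 6.71 in WT and 7.53 and 8.30 in KO pools, so its WT pools enclosed both KO pools. Gstm7 and Gstm6 had log2 fold changes of -0.0084 and -0.056, with overlapping pools. Gstm3 had 2 to 6 reads per library and was not tested.

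Pi, theta, omega, zeta and kappa transferases are smaller classes. Gstp1 (ENSMUSG00000060803; chr19:4035407-4037921, minus strand), which also binds the stress kinase JNK, had the smallest unadjusted p-value of the 37 genes, though with voom weights Mgst1 had the smallest and Gstp1, with an SE of 0.22, was past 0.05. Its FPKM was 9.62 and 9.14 in WT kidneys and 14.1 and 13.3 in KO kidneys, so that each group was tight and the gap between the groups wide. The log2 fold change was 0.52 (SE 0.11; 95% confidence interval 0.23 to 0.81; limma, Benjamini-Hochberg adjusted p = 0.677), and lay from 0.48 to 0.56 whichever pool was left out. Gstp2 lies 2.36 kb away and shares 62.3% of the windows of 50 bases of the longest Gstp1 transcript. It had 0 and 2 reads in WT and 1 and 0 in KO libraries, and Gstp3 had 0 in all 4.

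The theta genes lie together on chromosome 10. Gstt3 (chr10:75774115-75781414) had an FPKM of 9.18 and 6.90 in WT and 17.7 and 11.6 in KO pools, a log2 fold change of 0.81 (SE 0.25; limma, Benjamini-Hochberg adjusted p = 0.785), which was 0.51 without KO replicate 1. Gstt2 had 40.6 and 24.7 in WT and 49.4 and 44.1 in KO pools, a log2 fold change of 0.55, which was 0.20 without WT replicate 2. Their neighbour Gstt1, 2.40 kb from Gstt3 and the most abundant of the class, had nearly equal levels in all pools. These were 62.3 and 62.8 in WT and 68.4 and 62.7 in KO pools, a log2 fold change of 0.066 (95% confidence interval from -0.25 to 0.39) that turned to -0.028 after quantile normalization and to -0.0071 with voom weights. Gstt4 had 3 and 1 reads in WT and 0 in both KO libraries and was not tested.

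Gstz1, the maleylacetoacetate isomerase of tyrosine breakdown, had an FPKM of 47.7 and 30.4 in WT and 53.3 and 60.6 in KO pools, a log2 fold change of 0.57 (SE 0.24). Gsto1, which reduces dehydroascorbate, had 29.0 and 24.7 in WT and 34.4 and 37.3 in KO pools, a log2 fold change of 0.41 (SE 0.13; limma, Benjamini-Hochberg adjusted p = 0.785). The pools of both genes did not overlap. Gstk1, a transferase of mitochondria and peroxisomes, had 30.6 and 19.1 in WT and 24.0 and 33.3 in KO pools, which overlapped. Gsto2, adjacent to Gsto1, had 3 to 7 reads per library and was not tested.

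Microsomal transferases are membrane enzymes unrelated in fold to the soluble ones. Mgst1 (ENSMUSG00000008540; chr6:138140316-138156755, plus strand), which sits in the endoplasmic reticulum and the outer mitochondrial membrane, had an FPKM of 82.1 and 39.6 in WT kidneys and 146 and 119 in KO kidneys. This was 60.8 ± 30.0 (SD, n = 2) against 133 ± 18.9 (SD, n = 2), a log2 fold change of 1.20 (SE 0.38; limma, Benjamini-Hochberg adjusted p = 0.785). Mgst1 and Gsta1 were the members with a log2 fold change of at least 1. For Mgst1, leaving out WT replicate 2 gave 0.68, and leaving out WT replicate 1 gave 1.72. Mgst3 had 115 and 70.6 in WT and 145 and 133 in KO pools, a log2 fold change of 0.62 (SE 0.26). Mgst2 had 0 to 3 reads per library and was not tested.

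Promoter windows of 300 bases (250 before the start of transcription and 50 from it, RefSeq, GRCm38.p6) were found for 40 of the 45 genes and searched on both strands for the core of the antioxidant response element, TGACNNNGC. At least 1 match lay in a window of 7 of the 40 genes (17.5%), against 14.0% of 27025 genes with a window, so the share was close to the background. No window was given for Oplah, Gsta4, Gsr, Ggt5 and Gstt2. The 7 genes were Gsta3, Gstm5, Gstm7, Ggct, Mgst1, Ggt1 and Hagh. Of these, Gstm7, Ggct, Ggt1 and Hagh had overlapping KO and WT pools. Members higher in both KO pools whose windows held no match include Gsta1, Gstm1 and Gstp1. The windows of Mgst1 and Gstm5 are given to show where a match lies in members described with their values, and were chosen after those values were seen. Mgst1 also has a window at another start of transcription (chr6:138141337-138141636, plus strand), which held no match and is not printed. The match, in capitals, begins 56 bases before the start in Mgst1 (chr6:138140277-138140576, plus strand), where it reads on the reverse strand, and 42 bases before it in Gstm5 (chr3:107895604-107895903, plus strand). A match to these letters is a description and not a binding site.
Mgst1: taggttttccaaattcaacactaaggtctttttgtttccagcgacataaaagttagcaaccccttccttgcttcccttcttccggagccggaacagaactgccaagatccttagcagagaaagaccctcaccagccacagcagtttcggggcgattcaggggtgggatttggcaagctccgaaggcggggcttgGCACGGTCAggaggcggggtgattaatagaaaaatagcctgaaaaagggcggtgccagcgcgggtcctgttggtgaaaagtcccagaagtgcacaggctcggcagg
Gstm5: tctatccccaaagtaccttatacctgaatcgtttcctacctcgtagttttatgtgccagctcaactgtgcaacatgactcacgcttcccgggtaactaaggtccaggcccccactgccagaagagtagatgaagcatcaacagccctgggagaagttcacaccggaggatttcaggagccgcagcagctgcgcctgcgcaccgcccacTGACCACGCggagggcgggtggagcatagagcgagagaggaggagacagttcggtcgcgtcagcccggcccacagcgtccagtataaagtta

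Peroxidases reduce hydrogen peroxide and lipid hydroperoxides. Several are selenoproteins, in which a TGA codon, elsewhere a stop signal, is read as selenocysteine in the active site. The GENCODE M21 annotation marks such a codon in Gpx1, Gpx2, Gpx3 and Gpx4 and in none of the other 4 Gpx genes. The codon (in capitals) with the 12 bases on either side in the main transcript is given because it sets these genes, which include the 3 most abundant peroxidases, apart from the rest.
Gpx1, codon 47, chr9:108339451-108339453: gtcgcgtctctcTGAggcaccacgatc
Gpx2, codon 40, chr12:76795256-76795258: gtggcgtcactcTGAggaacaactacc
Gpx3, codon 73, chr11:54907256-54907258: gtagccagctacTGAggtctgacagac
Gpx4, codon 73, chr10:80054737-80054739: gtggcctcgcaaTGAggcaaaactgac

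Gpx3 (ENSMUSG00000018339; chr11:54902453-54910377), the secreted plasma enzyme that is made in the kidney, was the 2nd most abundant of all 54078 features and took up 1.92% to 2.48% of the reads. Its FPKM was 13515 and 9884 in WT kidneys and 11426 and 14114 in KO kidneys. The pools overlapped, and the log2 fold change was 0.14 (SE 0.59; 95% confidence interval from -1.41 to 1.68). It was -0.090 without WT replicate 2 and -0.095 after quantile normalization, so no direction can be given for it. Its SE depended on the variance model and was 0.22 without a trend, 0.25 with voom weights, 0.43 with a filter at a mean FPKM of 1, 0.96 with the replicate block and 4.49 with no filter, so the width of the interval is uncertain.

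Gpx1, the cytosolic enzyme and next in level, was the single member lower in KO without overlap. Its FPKM was 988 and 1012 in WT and 813 and 855 in KO pools, a log2 fold change of -0.26 (SE 0.22; limma, Benjamini-Hochberg adjusted p = 0.851). It lay between -0.30 and -0.23 with each pool left out, and at -0.48 after quantile normalization. With all pools kept, its SE ran from 0.12 without a trend to 0.42 with no filter, and it exceeded that range with either KO pool left out. Gpx4, which reduces phospholipid hydroperoxides and restrains ferroptosis, had 370 and 299 in WT and 380 and 432 in KO pools, a log2 fold change of 0.28 (SE 0.20), which became 0.13 when WT replicate 2 was left out and 0.44 when WT replicate 1 was. The KO pools lay above the WT pools, but KO replicate 1 was close to WT replicate 1. Gpx4 also shares 61.7% of the windows of 50 bases of its longest transcript with the pseudogene Gpx4-ps2.

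The peroxidases without a selenocysteine codon were all low, and so was Gpx2, which has such a codon. Gpx6 had an FPKM of 11.1 and 4.21 in WT and 11.2 and 12.8 in KO pools, and its log2 fold change of 0.76 was 0.11 without WT replicate 2. Gpx7 and Gpx8, enzymes of the endoplasmic reticulum, had overlapping pools, with log2 fold changes of 0.17 and -0.039. Gpx2, the enzyme of the gut epithelium, had 0 or 1 read per library. Gpx5, known from the epididymis, had 0 in all 4, which allows an FPKM of up to 0.104 to 0.112, the value of 3 reads, from counting error alone.

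Synthesis and recycling were represented by Gss, Gsr and Glrx. Gsr (ENSMUSG00000031584; chr8:33652523-33698163), glutathione reductase, had an FPKM of 75.5 and 62.3 in WT kidneys and 87.5 and 121 in KO kidneys, without overlap. The log2 fold change was 0.58 (SE 0.21; limma, Benjamini-Hochberg adjusted p = 0.785), and ran from 0.35 to 0.82 with each pool left out. Glrx, glutaredoxin, which removes glutathione from proteins, had 10.4 and 6.17 in WT and 12.9 and 12.8 in KO pools, a log2 fold change of 0.64 that was 0.29 without WT replicate 2. Gss, which completes glutathione synthesis, had 40.4 and 31.1 in WT and 34.3 and 47.1 in KO pools, which overlapped.

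The gamma-glutamyl cycle returns the amino acids of glutathione to the cell, and its members showed no common direction. Ggt1 (ENSMUSG00000006345; chr10:75561604-75586200), the brush border enzyme that opens this cycle, had an FPKM of 209 and 196 in WT kidneys and 128 and 232 in KO kidneys. The KO pools enclosed the WT pools, and the log2 fold change of -0.24 (95% confidence interval from -1.07 to 0.60) was 0.19 when KO replicate 1 was left out and -0.67 when KO replicate 2 was. Oplah, 5-oxoprolinase, was the exception in the class, with 76.0 and 52.5 in WT and 88.0 and 98.2 in KO pools, a log2 fold change of 0.55 (SE 0.22; limma, Benjamini-Hochberg adjusted p = 0.785). Ggt5, Ggt6, Ggct and Chac2, the last of which cleaves cytosolic glutathione, had log2 fold changes from -0.12 to 0.051 with overlapping pools.

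Glo1 and Hagh remove methylglyoxal with the help of glutathione, and Esd frees it from S-formylglutathione. Esd (ENSMUSG00000021996; chr14:74732297-74750765) had an FPKM of 107 and 90.5 in WT and 130 and 142 in KO pools, a log2 fold change of 0.46 (SE 0.15; limma, Benjamini-Hochberg adjusted p = 0.785). Glo1 was the steadiest member, with 42.2 and 41.1 in WT and 41.5 and 42.2 in KO pools, a log2 fold change of 0.0071 (95% confidence interval from -0.28 to 0.29). Its sign turned to -0.078 after quantile normalization. Hagh had 86.5 and 59.1 in WT and 86.8 and 72.8 in KO pools, which overlapped, and it overlaps 1407 bases of Fahd1 on the opposite strand, whose reads cannot be told apart if strand was not used. The same holds for Oplah and Exosc4, Gss and Acss2, Gstz1 and Pomt2, and Gsto1 and Cfap43.

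Summed over each class, the mean FPKM of the KO pools was 1.77 times that of the WT pools for microsomal, 1.64 times for mu and 1.61 times for alpha transferases. It was 1.08 times for peroxidases and 1.02 times for the gamma-glutamyl class, in both of which the pools overlapped. The alpha sum was 301.5 and 221 in WT and 312 and 530 in KO pools, so KO replicate 1 was close to WT replicate 1. Gsta2 made up 74.1% to 86.3% of that alpha sum. Gpx3 made up 88.1% to 91.4% of the peroxidase sum. The other peroxidases summed to 1384 and 1338 in WT and 1223 and 1319.7 in KO pools, so that both KO pools lay below the WT pools. Most of this sum was Gpx1, at 988 and 1012 in WT and 813 and 855 in KO pools. The lower sum therefore restates Gpx1, whereas Gpx4 and Gpx6 were higher in both KO pools. For all 25 transferases the sum was 1380 and 922 in WT kidneys and 1736 and 1919 in KO kidneys. WT replicate 2 was the lowest pool in 9 of the 10 class sums, the exception being the gamma-glutamyl class, where KO replicate 1 was lowest.

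**Figure D3:**
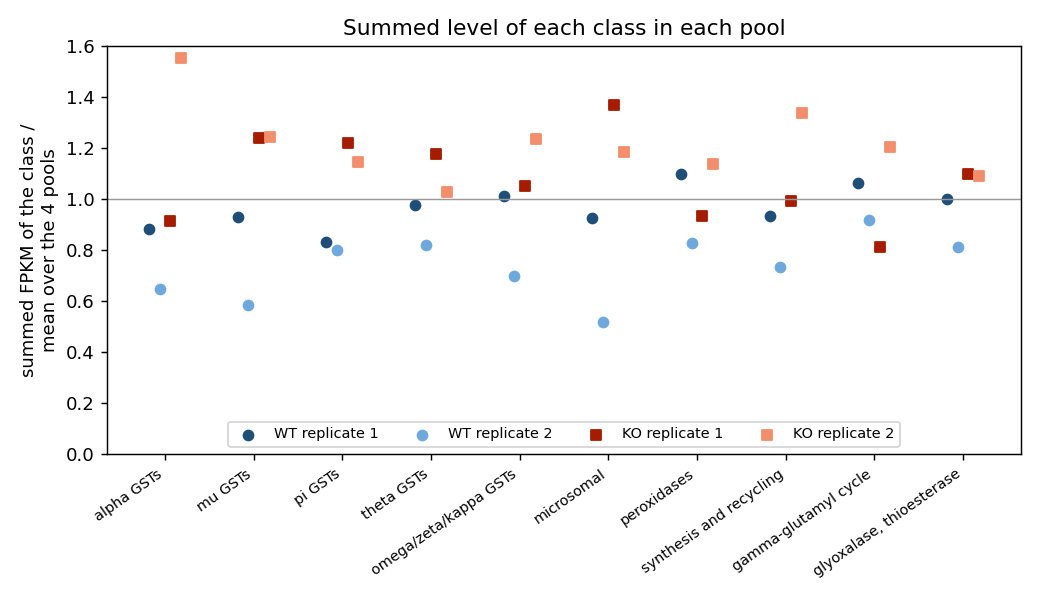
Summed FPKM of each class in each pool, divided by its mean over the 4 pools; circles are WT and squares KO pools. Both KO pools lie above both WT pools for 8 of the 10 classes, the exceptions being the peroxidases and the gamma-glutamyl enzymes. For microsomal transferases the values run from 0.519 in WT replicate 2 to 1.37 in KO replicate 1.

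**Figure D4:**
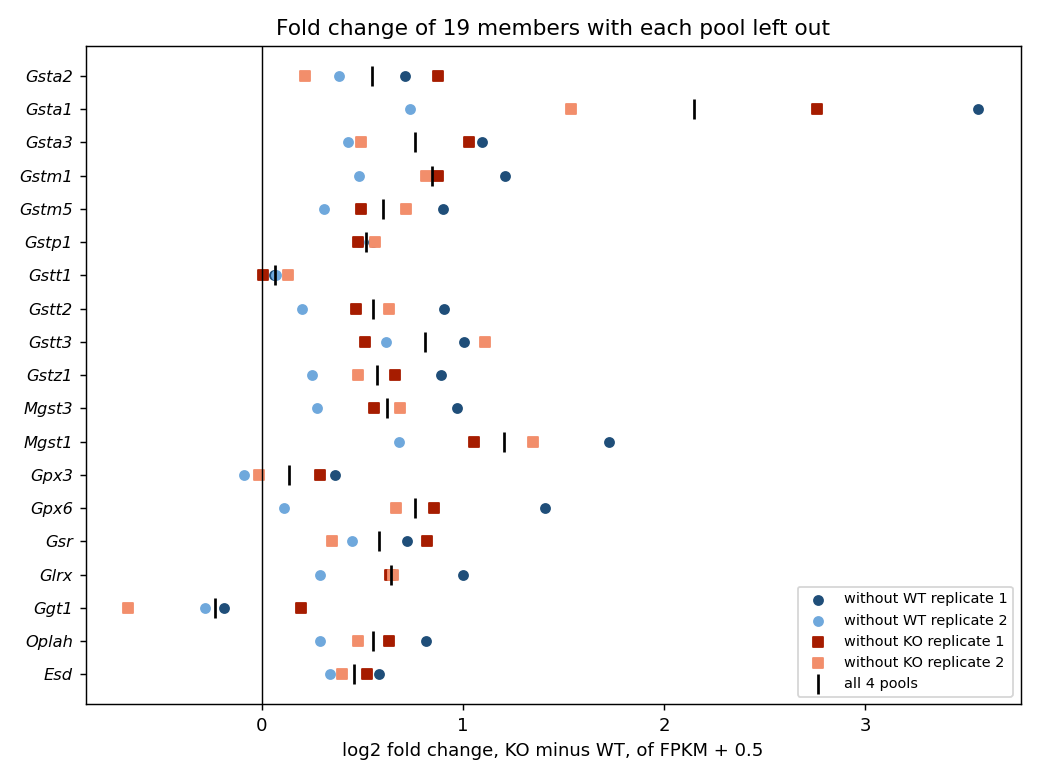
Log2 fold change (KO minus WT, of FPKM + 0.5) of 19 genes (the most abundant of each class and those with a log2 fold change of at least 0.5 in size and no overlap), with all 4 pools (bar) and with each pool left out (circles, WT pool left out; squares, KO pool left out). Leaving out WT replicate 2 gave the value nearest 0 for 12 of the 19 genes, while Gstp1 stayed between 0.48 and 0.56.

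Other genes of glutathione metabolism were read from a list of 30 that are not members. Of the 29 tested, 23 had a log2 fold change above 0, their median was 0.19, and both KO pools lay above both WT pools for 13 (44.8%; 19.7% of all genes tested) and below them for 2, Hpgds and Lancl1 (18.1% of all genes tested). WT replicate 2 was the lowest pool for 17 of the 30, with a summed FPKM of 1118 against 1339 in WT replicate 1 and 1481 and 1666 in the KO pools. Of the 29 tested 0 had an adjusted p-value under 0.05 (limma with Benjamini-Hochberg adjustment), and 5 had an unadjusted p under 0.05 (17.2%; 6.32% of all genes tested), namely Txnrd1, Srxn1, G6pdx, Abcc4 and Glrx5. Txnrd1, thioredoxin reductase, which can take over from glutathione reductase, had an FPKM of 36.0 and 34.0 in WT and 54.0 and 73.1 in KO pools. Gclc and Gclm encode the subunits of the rate-limiting enzyme of glutathione synthesis. Gclc had 138 and 90.8 in WT and 245 and 130 in KO pools, which overlapped, and Gclm had 60.6 and 58.3 in WT and 74.6 and 65.6 in KO pools, which did not. Slc7a11, the cystine importer, was listed at 0.0760 to 0.150 and was not tested. Abcc2, an apical exporter of glutathione conjugates, had 75.9 and 53.5 in WT and 79.7 and 222 in KO pools, so KO replicate 2 held most of its difference, as it did for Gsta2 and Gsta4. Nfe2l2, the gene of NRF2, had 34.8 and 34.0 in WT and 40.2 and 48.1 in KO pools, a log2 fold change of 0.35 (SE 0.14).

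Markers of the proximal tubule were read beside these genes. Of these 15 markers, 4 had a log2 fold change above 0 and 11 below, with a median of -0.15, and both KO pools lay above both WT pools for 2 (13.3%; 19.7% of all genes tested) and below them for 5 (18.1% of all genes tested). Slc34a1, the phosphate transporter, had an FPKM of 898 and 689 in WT and 365 and 609 in KO pools, whereas Slc22a6, an organic anion transporter, had 233 and 141 in WT and 236 and 383 in KO pools. Of the 9 tubular injury markers 5 had a log2 fold change above 0 and 4 below, with a median of 0.085, and 4 were higher (19.7% of all genes tested) and 1 lower in KO without overlap. Lcn2 had 133 and 95.2 in WT and 249 and 273 in KO pools, a log2 fold change of 1.21. Vcam1 had 14.6 and 31.0 in WT and 10.5 and 2.59 in KO pools, a log2 fold change of -1.91, and Havcr1 had 210 and 393 in WT and 249 and 105 in KO pools, which overlapped. All 9 endothelial markers had a log2 fold change above 0, with a median of 0.24, and 5 were higher in KO without overlap (55.6%; 19.7% of all genes tested). Their summed FPKM was 170 and 194 in WT and 241 and 249 in KO pools. All 5 podocyte markers were above 0, with a median of 0.095 and 2 without overlap. Of the macrophage markers 8 of 10 were below 0, with a median of -0.54, and of the fibroblast markers 4 of 5, with a median of -0.22. Without overlap, 2 macrophage markers and 1 fibroblast marker were lower in KO (18.1% of all genes tested). The summed FPKM was 208 and 490 in WT and 264 and 235 in KO pools for macrophage markers. For fibroblast markers it was 134 and 269 in WT and 161 and 181 in KO pools. Both KO sums thus lay above WT replicate 1 and below WT replicate 2. The part of these cell type and injury markers in the values of the glutathione genes was not tested.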

How the data were processed

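Libraries of poly(A) RNA from 4 pools of injured kidney, 2 WT and 2 KO, were compared. The values the authors deposited are FPKM, in 1 table of all genes. The submitters' processing notes name HISAT2 2.0.5 and GRCm38.p6 (mm10). The counting tool and its use of strand are not given in the sources used here. Multiplied by gene length, 100% of the nonzero deposited FPKM were whole multiples of 1 read, within 0.01 of a read, which gave the reads. The 2 pools of a group differed beyond sampling noise (chi-square per gene, 34.6 in WT and 26.9 in KO).

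Genes with a mean FPKM of 0.5 or more (15414) entered limma 3.58.1 (R 4.3.3), on log2(FPKM + 0.5), with lmFit, a mean-variance trend in eBayes, two-sided tests and no covariates. P-values were adjusted over all of them by Benjamini-Hochberg, with a threshold of 0.05. Such fold changes understate differences of low genes. By exact permutation, 2 pools against 2 could reach no two-sided p below 0.333. P-values set the difference between the groups against the spread between pools of a group, moderated over genes. The spread between animals was not measured. Other steps used Python 3.11.15 and pandas 2.3.3. Gene positions are those of the deposited table. In GENCODE M21, whose transcripts gave the shared windows and selenocysteine codons, 39 of the 45 genes had identical positions.

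The members and lists were chosen with earlier results of these data known. All members are named. Values in every pool were given at least for the most abundant member of each class, for tested members without overlap of the pools and a log2 fold change of at least 0.5 in size, and for those of at least 1. The alternatives were a pseudocount of 0.1 or 1, no filter (features with a read in some library), a filter at a mean FPKM of 1, quantile normalization, eBayes without a trend, a block for the replicate number, voom on the recovered reads, each pool left out, and an unadjusted p. Protein sequences were not used here.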

Additional observations from a re-analysis of the deposited data

How the results depend on the processing

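The number of genes past the threshold was 0 under every alternative with an adjusted p and 974 with an unadjusted p. With each pool left out, the number of the 37 members whose pools did not overlap ranged from 25 to 32, and their median log2 fold change from 0.20 to 0.53, the highest of both without WT replicate 1. Other alternatives on the same 37 gave 20 or 21 members without overlap, and the setting with no filter gave 24 of 43, which include genes with few reads. Their medians were 0.20 to 0.28. With one pool left out, the lone pool of its group is assumed to vary like the others. The members' adjusted p-values (limma, Benjamini-Hochberg) ranged from 0.298 to 1.00 over all alternatives.

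The direction of 21 of the 37 members was the same in every alternative, which for the 20 without overlap of the pools says nothing of stability to a left-out pool, since dropping a pool cannot turn it. Quantile normalization turned Gpx3 to -0.095, Gstt1 to -0.028, Glo1 to -0.078 and Gstm7 to 0.011, and voom weights turned Gstt1 to -0.0071, Glo1 to -0.066, Ggt6 to -0.019 and Ggct to -0.029. The cause was not tested. With each pool left out, the log2 fold change ranged from -0.42 to 0.17 for Chac2, from -0.23 to 0.22 for Gstm4, from -0.38 to 0.36 for Gstm7, from -0.12 to 0.47 for Gpx7, from -0.090 to 0.36 for Gpx3, from -0.12 to 0.42 for Hagh, from -0.011 to 0.025 for Glo1, from -0.050 to 0.40 for Gss, from -0.11 to 0.56 for Gstk1, from -0.31 to 0.23 for Gpx8, from -0.18 to 0.068 for Gstm6, from -0.12 to 0.19 for Ggct, from -0.67 to 0.19 for Ggt1, from -0.11 to 0.21 for Ggt6 and from -0.19 to 0.036 for Ggt5.

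The pools share replicate numbers only, and the deviations of same-numbered pools had a correlation of -0.0017 across 15414 genes. A fit with a replicate block called 0 genes and gave 932 at an unadjusted p under 0.05. In it 20 members did not overlap and their median was 0.28, since in a balanced design the block leaves fold changes as they are.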

Other observations

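Pseudogenes with names of the same families were not members. Gstm2-ps1, a processed pseudogene on chromosome 5, had an FPKM of 18.7 and 14.6 in WT kidneys and 26.0 and 30.3 in KO kidneys, a log2 fold change of 0.75 (SE 0.17), and its pools did not overlap. It holds 17.3% of the windows of 50 bases of the longest Gstm1 transcript. Gpx4-ps2, a transcribed pseudogene on chromosome 10, had 161 and 122 in WT and 151 and 160 in KO kidneys, which overlapped, whereas those of Gpx4 did not. How the reads of genes and pseudogenes with shared sequence were assigned was not tested.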
